A study of Mus musculus with 15 samples.

Results

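The unfolded protein response genes described here are 10 genes picked by symbol: Hspa5, Sdf2l1, Creld2, Dnajb9, Herpud1, Xbp1, Atf4, Ddit3, Trib3 and Atf3. All 10 were found once among the 33340 genes of the count table, and all 10 passed the filter on low counts that left 17457 genes for testing. RNA came from whole lungs of male C57BL/6 mice, for which the study's methods give an age range that starts at 10 weeks. Mice of the day 7, day 14 and day 21 groups had received bleomycin, a DNA-damaging drug that causes lung injury followed by fibrosis, into the trachea at 5 U/kg under Avertin anaesthesia, and lungs were taken on the named day. The day 0, day 7 and day 14 groups held 4 libraries each, and the day 21 group 3, by the sample titles, while the series' design text gives 3 replicates per time point. Day 0 was titled control and its treatment label read none, except that replicate 4 carried the label of the bleomycin samples and was kept at day 0 by its title and time point. No vehicle-instilled group was analysed here, so instillation and drug cannot be told apart.

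The unfolded protein response is the reaction of a cell to unfolded proteins in the endoplasmic reticulum (ER). It has 3 known sensors in the ER membrane. IRE1 (Ern1) splices the messenger of Xbp1, ATF6 is cut in the Golgi to release a transcription factor, and PERK (Eif2ak3) phosphorylates eIF2alpha, which slows translation while that of Atf4 rises. Chaperone genes such as Hspa5 are known targets of ATF6 and XBP1, and Ddit3 and Trib3 of ATF4. In the lung, ER stress is best known in alveolar type 2 cells, which secrete surfactant, and in collagen-secreting fibroblasts. In whole lung, fewer cells of a type and less RNA per cell cannot be told apart, and gene-level counts do not separate spliced from unspliced Xbp1.

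Stretches before the RefSeq start of 5 of the genes are shown because they hold elements, or parts of them, by which such targets are usually recognised. They are RefSeq promoters of the GRCm38.p6 mouse build, on the strand of the gene, and positions are counted back from the RefSeq start. Capitals mark CCAAT and CCACG, or ATTGG and CGTGG where these lie on the other strand, and the letters TTGCATCA. The Hspa5 stretch is chr2:34772020-34772048 (plus strand), that of Creld2 is chr15:88819506-88819575 (plus), that of Sdf2l1 is chr16:17132393-17132453 (minus), that of Herpud1 is chr8:94386304-94386417 (plus) and that of Atf3 is chr1:191183426-191183451 (minus). RefSeq and GENCODE M21 differ in where some of these genes begin: the Hspa5 stretch lies within an exon of GENCODE M21, and the Atf3 stretch lies inside the longer Atf3 gene of GENCODE M21, outside its exons.
Hspa5: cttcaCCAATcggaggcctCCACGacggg
Creld2: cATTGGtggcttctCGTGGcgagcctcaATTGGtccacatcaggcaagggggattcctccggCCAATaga
Sdf2l1: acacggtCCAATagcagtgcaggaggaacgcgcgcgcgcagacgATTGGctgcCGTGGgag
Herpud1: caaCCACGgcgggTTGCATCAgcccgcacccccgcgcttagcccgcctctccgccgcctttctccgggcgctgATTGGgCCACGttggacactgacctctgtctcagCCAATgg
Atf3: tctcgcacTTGCATCAccaagtccgc

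The ER stress response element (ERSE), CCAAT and CCACG with 9 bases between them, was found on either strand in the 250 bases before the RefSeq start of 2 of the 10 genes, Hspa5 (in the exon named above) and Creld2, and in 0.113% of 32851 mouse promoters. Its shorter form ERSE-II, ATTGG and CCACG with 1 base between them, was found in Herpud1 among the 10 and in 0.0304% of all promoters. The C/EBP-ATF element TTGCATCA was in the windows of Atf3 and Herpud1 and in 0.792% of promoters. The letters TGACGTGG of an XBP1 element were in none of the 10 windows and in 0.563% of all. CCAAT alone was in 7 of the 10 and in 33.9% of all promoters, and CCACG alone in 6 of the 10 and in 28.3%, and both overlap the ERSE and ERSE-II matches. The whole Dnajb9 window and the CCAAT of Ddit3 also lie within exons of GENCODE M21. The cAMP response core TGACGT was in Hspa5 and Atf3, outside the stretches shown, and in 6.47% of promoters, and it also lies within TGACGTGG. Sdf2l1 held CCAAT and CCACG but not at the spacing of an ERSE. These matches describe letters only.

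The libraries held 15652008 to 18020661 counts each. Libraries differed in the share of counts from mitochondrial genes, which was 2.28% and 2.31% in day 0 replicates 1 and 2, 4.22% and 4.05% in day 0 replicates 3 and 4, 2.03% to 2.15% at day 7, 2.1% to 4.14% at day 14 and 2.66% to 4.01% at day 21. All 7 immediate early genes followed were higher in day 0 replicates 3 and 4 than in replicates 1 and 2, to unequal degrees: Nr4a1 stood at 78.0, 27.6, 338 and 798 CPM in replicates 1 to 4, Fos at 56.0, 38.9, 89.4 and 566 CPM, and Jun at 316, 321, 329 and 569 CPM, so that for Fos and Jun replicate 4 stood apart most. Of the 3, which were named after their values were seen, Nr4a1 has the widest ratio of highest to lowest day 0 library. Lung markers were present in every library, with Sftpc of alveolar type 2 cells at 2213 CPM or more and Ager of alveolar type 1 cells at 1042 CPM or more. CPM are counts scaled to a library total of 1000000 after TMM scaling, which evens out composition. Changes below are log2 fold changes fitted by edgeR (quasi-likelihood), and p-values were adjusted by Benjamini-Hochberg over all genes tested. A gene was called at an adjusted p under 0.05 and a change over 1.5-fold.

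Of the 10 genes, 3 were called higher and 1 lower at day 7, 3 higher and 1 lower at day 14, and 2 higher and 1 lower at day 21, each against day 0. Over all genes tested, 8.78% were called higher and 7.36% lower at day 7, 12.0% higher and 11.2% lower at day 14, and 12.4% higher and 10.1% lower at day 21. The median change of the 10 was 0.25, 0.13 and 0.13 at the 3 days, beside 0.01, 0.02 and 0.02 over all genes. The genes did not all move together. The chaperone Hspa5 rose at day 7 and day 14, its cofactor Sdf2l1 rose and Herpud1 fell at all 3 days. Creld2 was called higher at day 7 alone, and Trib3 at day 14 and day 21. Xbp1, Atf4, Ddit3, Atf3 and Dnajb9 were called at no day. The 3 comparisons share the day 0 libraries, so they are not independent of each other.

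**Figure D1:**
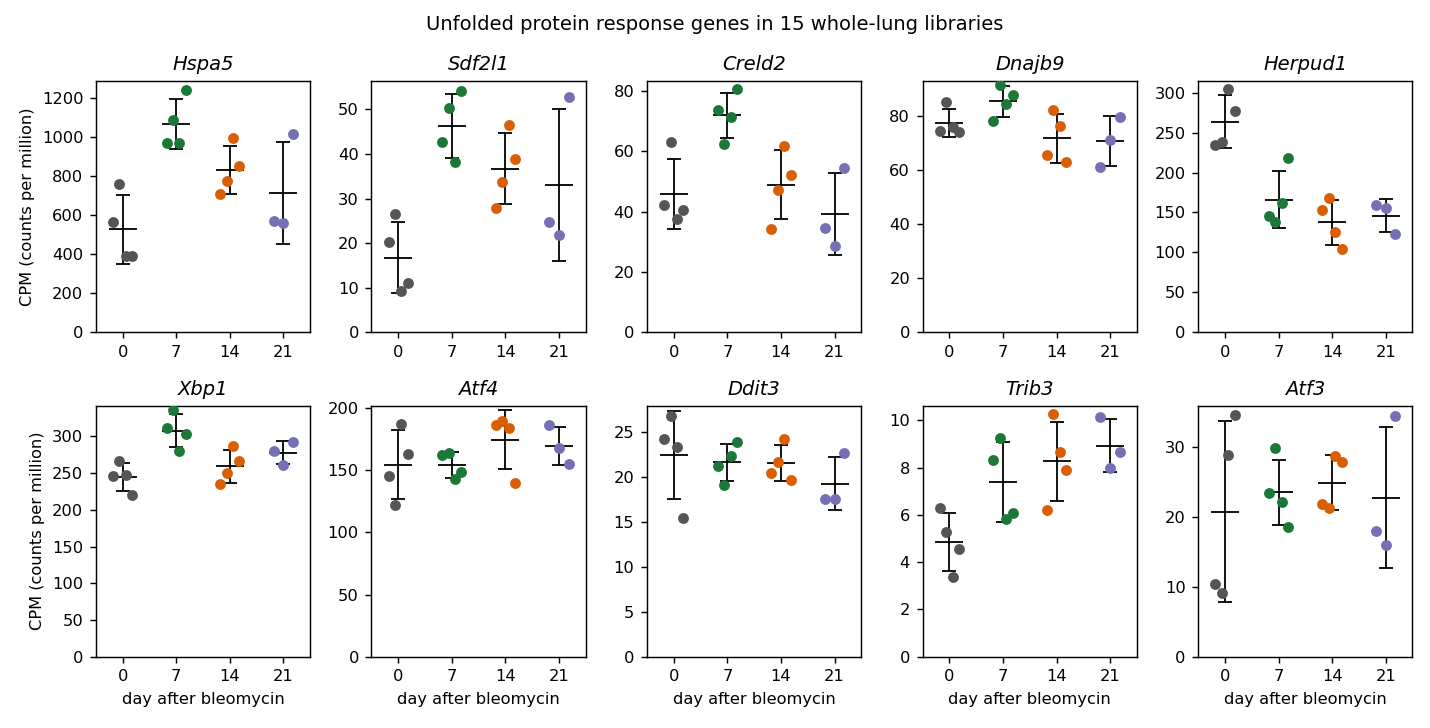
CPM of each gene in the 15 libraries by day after bleomycin, with points for libraries, long bars for means and error bars for 1 SD (n = 4, 4, 4 and 3). Hspa5 and Sdf2l1 lay above all day 0 libraries in all 4 libraries of day 7, and Herpud1 lay below all of them in every bleomycin library.

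Hspa5 (BiP, the main ER chaperone of the HSP70 family and a repressor of the sensors) lies at chr2:34771970-34777547 on the plus strand. It stood at 564, 758, 388 and 392 CPM in day 0 replicates 1 to 4, at 970, 1085, 967 and 1240 CPM at day 7, at 708, 772, 993 and 853 CPM at day 14, and at 567, 559 and 1012 CPM at day 21. All 4 day 7 libraries lay above all day 0 libraries, as did 3 of 4 at day 14 and 1 of 3 at day 21. The log2 change was 1.02 (SE 0.23, adjusted p = 0.00558) at day 7, 0.66 (SE 0.23, adjusted p = 0.0364) at day 14 and 0.44 (95% interval -0.08 to 0.96, adjusted p = 0.195) at day 21. The day 7 change was 0.78 and not called (adjusted p = 0.0641) once the fit took in the mitochondrial share, and 0.67 and called within libraries of like share. The day 14 call was lost in 6 of 8 fits that left out 1 library, all but those without day 0 replicate 2 or day 14 replicate 1, and the adjusted p then reached 0.118. At day 21 the log2 change was 0.06 without replicate 3, the library at 1012 CPM.

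Sdf2l1, an ER protein that works with HSP40 cofactors of BiP, lies at chr16:17130138-17132383 on the minus strand. It stood at 20.2, 26.4, 9.21 and 11.1 CPM at day 0, at 42.7, 50.2, 38.2 and 54.1 CPM at day 7, at 27.8, 33.6, 46.4 and 38.9 CPM at day 14, and at 24.7, 21.8 and 52.8 CPM at day 21. The day 7 and day 14 libraries did not overlap those of day 0, whereas 2 of the 3 day 21 libraries fell within the day 0 range. The log2 change was 1.47 (SE 0.32, adjusted p = 0.00460) at day 7, 1.13 (SE 0.32, adjusted p = 0.0132) at day 14 and 0.98 (SE 0.34, adjusted p = 0.0391) at day 21. At day 7 it was 1.14 and not called (adjusted p = 0.0538) with the share in the fit, and 0.97 and called within like libraries. The day 21 call was lost without day 0 replicate 1, 3 or 4 or day 21 replicate 3, and the log2 change was 0.43 (adjusted p = 0.364) without the last.

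Creld2, an ER protein with disulfide isomerase activity, lies at chr15:88819646-88826683 on the plus strand. Its levels were 42.3, 63.1, 37.6 and 40.6 CPM at day 0, 73.7, 62.4, 71.4 and 80.6 CPM at day 7, 34.3, 47.3, 61.9 and 52.3 CPM at day 14, and 34.4, 28.6 and 54.5 CPM at day 21. Of the day 7 libraries, 3 lay above all day 0 libraries, and the day 14 libraries overlapped those of day 0. The log2 change was 0.65 (SE 0.21, adjusted p = 0.0362) at day 7, a call that held in 2 of 8 fits without 1 library, those without day 0 replicate 2 or day 7 replicate 2. It was also lost with the share in the fit (0.60, adjusted p = 0.169) and within like libraries (0.43, adjusted p = 0.0999). At day 14 it was 0.09 (95% interval -0.36 to 0.54) and at day 21 -0.23 (95% interval -0.72 to 0.26), and neither was called.

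Dnajb9 (ERdj4, an HSP40 cofactor that brings BiP to the sensor IRE1) lies at chr12:44205559-44210326 on the minus strand. It ranged from 73.9 to 85.0 CPM at day 0, 77.9 to 91.3 CPM at day 7, 62.8 to 82.1 CPM at day 14 and 61.0 to 79.4 CPM at day 21. The groups overlapped at every day. The log2 changes were 0.14 (95% interval -0.09 to 0.37), -0.11 (-0.34 to 0.12) and -0.13 (-0.38 to 0.12).

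Herpud1, an ER membrane protein of the degradation machinery, lies at chr8:94386438-94395377 on the plus strand and went the other way. It stood at 235, 238, 305 and 278 CPM at day 0, at 146, 138, 162 and 218 CPM at day 7, at 153, 168, 126 and 104 CPM at day 14, and at 160, 156 and 123 CPM at day 21. All 11 bleomycin libraries lay below all 4 day 0 libraries. It fell by 0.67 (SE 0.17, adjusted p = 0.0109) at day 7, by 0.94 (SE 0.17, adjusted p = 0.000702) at day 14 and by 0.85 (SE 0.19, adjusted p = 0.00310) at day 21 on the log2 scale. These 3 calls held in every fit without 1 library. At day 7 the log2 change was -0.58 and not called (adjusted p = 0.0897) once the fit took in the mitochondrial share. Within libraries of like share it was -0.53 and not called (adjusted p = 0.0589).

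Xbp1, whose spliced messenger encodes the transcription factor of the IRE1 branch, lies at chr11:5520659-5525893 on the plus strand. It ranged from 220 to 266 CPM at day 0, 281 to 336 CPM at day 7, 235 to 287 CPM at day 14 and 261 to 293 CPM at day 21. The day 7 libraries lay above all day 0 libraries without overlap. The log2 change at day 7 was 0.33 (SE 0.10, adjusted p = 0.0239), below the 1.5-fold threshold, and it was 0.08 (95% interval -0.13 to 0.29) at day 14 and 0.18 (95% interval -0.04 to 0.41) at day 21.

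Atf4, the transcription factor of the PERK branch, whose translation is regulated apart from its messenger level, lies at chr15:80255184-80257541 on the plus strand. It stood at 145, 122, 187 and 163 CPM at day 0, at 142 to 164 CPM at day 7, at 139 to 189 CPM at day 14 and at 155 to 186 CPM at day 21, and the groups overlapped at every day. The log2 changes were -0.00 (95% interval -0.28 to 0.28), 0.18 (-0.10 to 0.46) and 0.13 (-0.17 to 0.44). Ddit3 (CHOP, a pro-apoptotic transcription factor) lies at chr10:127290774-127296288 on the plus strand and ranged from 15.5 to 26.8 CPM at day 0, 19.1 to 24.0 CPM at day 7, 19.7 to 24.3 CPM at day 14 and 17.5 to 22.7 CPM at day 21. Its log2 changes were -0.05 (95% interval -0.38 to 0.28), -0.06 (-0.39 to 0.27) and -0.22 (-0.57 to 0.14). Its exons share 68 bases with Mars and 13 bases with Gm4189 on the other strand. They also share 105 bases with another Ddit3 entry of GENCODE M21 on the same strand, which is not in the count table. The strand setting of the counting was not given in the sources used here.

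Trib3, a pseudokinase that binds AKT and is induced by CHOP and ATF4, lies at chr2:152337422-152344032 on the minus strand and was the lowest of the 10, with 53 to 166 counts per library. It stood at 6.28, 5.26, 3.36 and 4.57 CPM at day 0, at 8.33, 9.26, 5.82 and 6.06 CPM at day 7, at 6.20, 10.3, 8.64 and 7.91 CPM at day 14, and at 10.1, 7.98 and 8.65 CPM at day 21. The day 21 libraries all lay above those of day 0, as did 3 of 4 at day 14 and 2 of 4 at day 7. The log2 change was 0.60 (SE 0.22, adjusted p = 0.0603, not called) at day 7, 0.76 (SE 0.22, adjusted p = 0.0162) at day 14 and 0.87 (SE 0.24, adjusted p = 0.0118) at day 21. The day 14 call was lost without day 0 replicate 3 (adjusted p = 0.0526) or day 14 replicate 2 (adjusted p = 0.0617), and the day 21 call without day 21 replicate 1 (adjusted p = 0.0603). The day 7 change was called without day 0 replicate 1 or day 7 replicate 3, and Trib3 was not called between the later days, with a log2 change of 0.16 (95% interval -0.30 to 0.63) at day 14 and 0.27 (-0.22 to 0.77) at day 21, each against day 7.

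Atf3, a stress-induced transcription factor that is also an immediate early gene, lies at chr1:191170296-191218039 on the minus strand. It stood at 10.4, 9.19, 29.0 and 34.6 CPM in day 0 replicates 1 to 4, so that the libraries high in mitochondrial counts and in Nr4a1 were also high in Atf3. It ranged from 18.7 to 29.9 CPM at day 7, 21.3 to 28.8 CPM at day 14 and 15.95 to 34.5 CPM at day 21, within the day 0 range throughout. The log2 changes were 0.18 (95% interval -0.59 to 0.95), 0.26 (-0.51 to 1.03) and 0.13 (-0.70 to 0.96), with intervals wider than those of the other 9 genes. At day 7 it was 0.78 and not called (adjusted p = 0.277) with the share in the fit. Within like libraries, which keep the low day 0 replicates 1 and 2, it was 1.25 and called at day 7. At day 14 like libraries keep the high replicates 3 and 4, and it was -0.30 and not called.

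**Figure D2:**
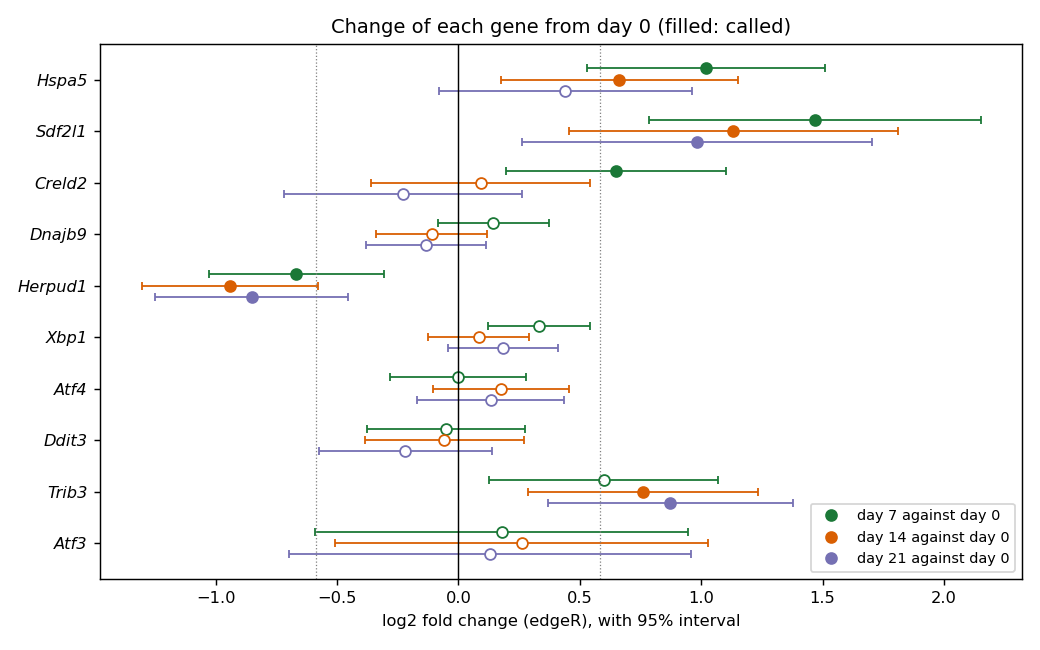
Log2 fold change of each gene at day 7, day 14 and day 21 against day 0, with 95% intervals, dotted lines at 1.5-fold and filled points for called genes. Herpud1 was called lower at all 3 days and Sdf2l1 higher at all 3, and the intervals of Atf3 were the widest.

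Between the later days, 0 of the 10 genes were called at day 14 against day 7, where 6.00% of all genes were, and 3 of the 10 (Xbp1, Dnajb9 and Creld2) and 25.0% of all genes had an unadjusted p under 0.05. At day 21 against day 7, Creld2 was called lower by edgeR with a log2 change of -0.88 (SE 0.23, adjusted p = 0.0257), where 4.34% of all genes were called lower. The call was kept in 2 of 7 fits without 1 library, those without day 7 replicate 2 or day 21 replicate 3. At day 21 against day 14, 0 of the 10 genes and 0% of all genes were called, and none of the 10 but 1714 of all genes had an unadjusted p under 0.05. DESeq2 and limma voom also called 0 of the 10 in that comparison and at day 14 against day 7.

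With the log2 of each library's mitochondrial share as a covariate in edgeR, 0 of the 10 genes were called at day 7, beside 4.97% of all genes higher and 2.30% lower, and 6 of the 10 and 25.5% of all genes had an unadjusted p under 0.05. Hspa5 then had a log2 change of 0.78 (adjusted p = 0.0641), Sdf2l1 of 1.14 (adjusted p = 0.0538), Creld2 of 0.60 (adjusted p = 0.169) and Herpud1 of -0.58 (adjusted p = 0.0897). In the 2 day 0 and 4 day 7 libraries under 2.5%, a comparison added after the data were seen, Hspa5 (0.67, adjusted p = 0.0200), Sdf2l1 (0.97, adjusted p = 0.00705) and Atf3 (1.25, adjusted p = 0.00423) were called higher, while Creld2 (0.43, adjusted p = 0.0999) and Herpud1 (-0.53, adjusted p = 0.0589) were not called. Of all genes, 7.54% were called higher and 5.27% lower in that comparison. Its day 0 libraries, replicates 1 and 2, were the lowest of day 0 for Atf3 (10.4 and 9.19 CPM) and the highest for Hspa5 and Sdf2l1. Day 0 replicates 3 and 4, left out, stood at 29.0 and 34.6 CPM for Atf3. The choice of day 0 libraries and the mitochondrial share cannot be told apart here. At day 14 the same 4 genes were called with the covariate and in the 2 day 0 and 3 day 14 libraries over 3.5%, where Hspa5 changed by 1.15, Sdf2l1 by 1.95, Trib3 by 1.16 and Herpud1 by -1.14 on the log2 scale. Of all genes, 12.3% were called higher and 11.7% lower with the covariate, and 8.78% higher and 8.87% lower in those 5 libraries. Day 0 replicates 3 and 4, kept there, were the lowest of day 0 for Hspa5, Sdf2l1 and Trib3 and the highest for Herpud1. Day 14 replicate 1, left out, was the lowest of day 14 for Hspa5, Sdf2l1 and Trib3. In all libraries these 4 genes changed by 0.66, 1.13, 0.76 and -0.94 in the order above. The choice of libraries and the mitochondrial share cannot be told apart here either. At day 21 the 3 calls were kept with the covariate, where 13.0% of all genes were called higher and 10.7% lower.

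**Figure D3:**
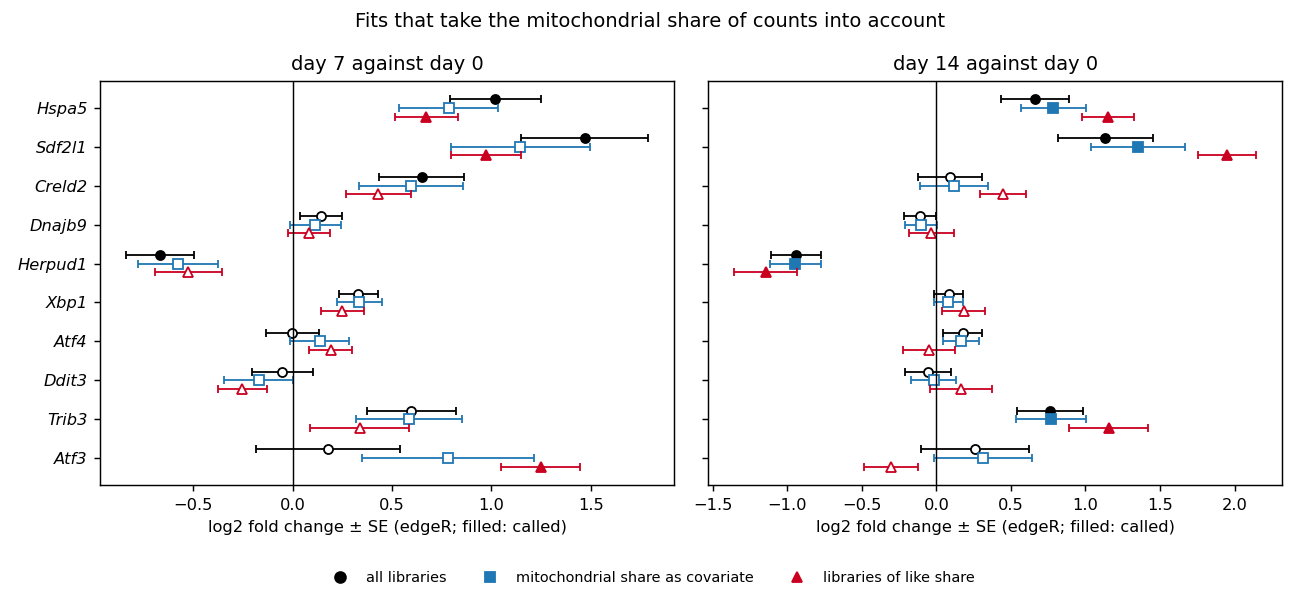
Log2 fold change with its SE for each gene at day 7 (left) and day 14 (right) against day 0, from all libraries, with the mitochondrial share in the model, and within libraries of like share (under 2.5% left, over 3.5% right). Filled points are called, and with the covariate 0 of the 10 were called at day 7 and 4 at day 14.

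**Figure D4:**
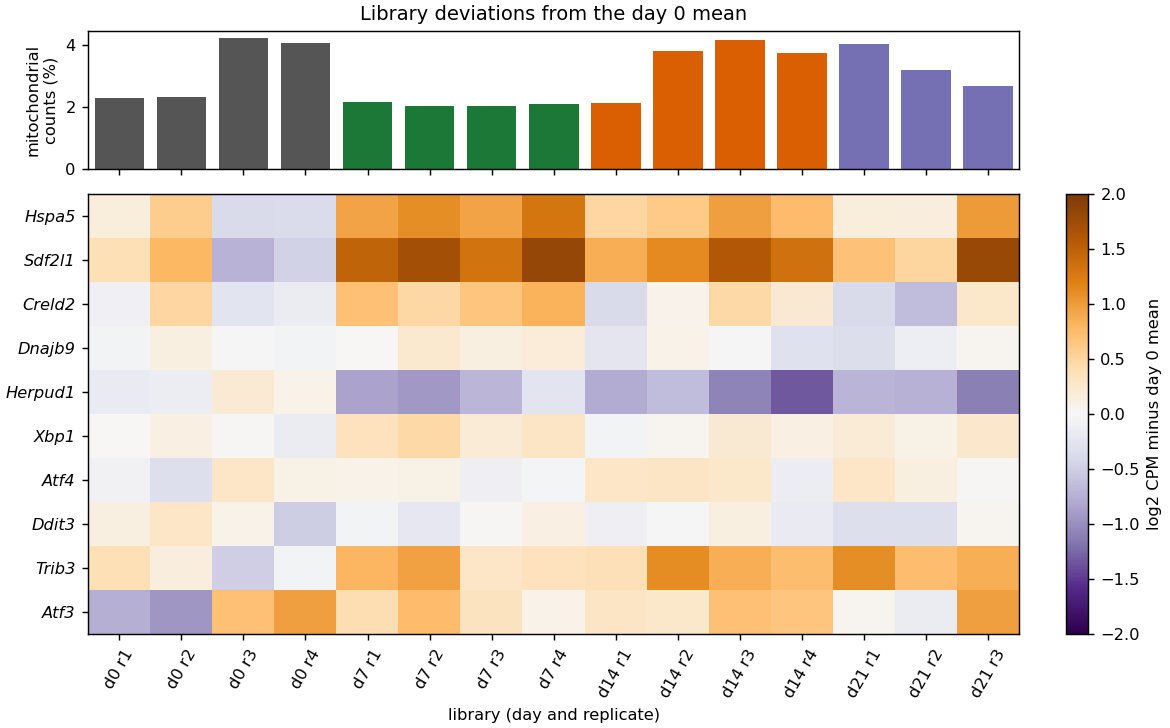
The upper bars give the share of counts from mitochondrial genes in each library, and the lower grid gives log2 CPM of each gene minus its day 0 mean. Day 0 replicates 3 and 4 were low for Hspa5 and Sdf2l1 and high for Atf3, and day 21 replicate 3 was high for Hspa5, Sdf2l1 and Atf3.

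Levels between genes can be compared only per length. Per kilobase of exon, Hspa5 was highest at every day (mean 124 CPM per kb at day 0 and 252 at day 7), and Trib3 lowest (2.29 at day 0 and 4.20 at day 21). Herpud1 was second at day 0 with 113 CPM per kb, below Hspa5 by less than the spread of Hspa5 between the day 0 libraries, and had 71.2 at day 7, below the 94.8 of Xbp1. Atf4 kept to 65.4 to 73.9, Xbp1 to 75.4 to 94.8 and Ddit3 to 11.3 to 13.1 CPM per kb across the days.

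Over the 15 libraries, after each day's mean was taken out of log2 CPM, the 3 genes most like Hspa5 of 11820 compared were Sdf2l1 (Pearson r = 0.98), Calr (0.97) and Pdia6 (0.94). Among the 10, Creld2 (r = 0.86) followed Hspa5 next, and Atf4 (r = -0.66) and Herpud1 (r = -0.43) ran against it. The genes most like Atf4 were Epn1, Trip6 and Acy1 (r = 0.95 to 0.92), those most like Atf3 were Alg6, Nol3 and Cep250 (0.91 to 0.90), those most like Ddit3 were Thap1, Samd1 and Zfp874a (0.86 to 0.85), those most like Trib3 were Cdkn2d, Spdl1 and Nif3l1 (0.82 to 0.75) and those most like Xbp1 were Il1b, Tnfaip2 and Actl6a (0.82 to 0.78). The points share libraries and with them the mitochondrial share, which in the same terms went with Hspa5 at r = -0.46 and with Atf3 at r = 0.54, so these values are descriptions.

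Counts for the other genes of the pathway are to be read beside the 8.78%, 12.0% and 12.4% of all genes called higher at day 7, day 14 and day 21, and the 7.36%, 11.2% and 10.1% called lower. With the mitochondrial covariate these shares were 4.97%, 12.3% and 13.0% higher and 2.30%, 11.7% and 10.7% lower. In libraries of like share they were 7.54% and 8.78% higher and 5.27% and 8.87% lower at day 7 and day 14. Of 9 tested sensors and processing proteases, 1 was called at day 7 (Creb3l1, higher by 0.78), a share near that of all genes, and 0 at day 14 or day 21. Ern1 had log2 changes of -0.13, -0.16 and 0.04, Eif2ak3 of 0.08, 0.02 and 0.17, and Atf6 of 0.09, -0.22 and 0.03. These 4 genes were named after their values were seen. Of 4 eIF2alpha kinases and phosphatase subunits, 0 were called at any day.

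ER chaperones and folding enzymes were called higher for 8 of 20 genes at day 7, for 3 on day 14 and for 2 on day 21, and none was called lower. Their median log2 change was 0.49, 0.37 and 0.25. P4hb, the disulfide isomerase that is also a subunit of collagen prolyl hydroxylase, went from 502 CPM (SD 57.0, n = 4) at day 0 to 873 CPM (SD 149, n = 4) at day 14, a log2 change of 0.80 (SE 0.14, adjusted p = 0.000526). Calr, the lectin chaperone calreticulin, changed by 0.63 (SE 0.21, adjusted p = 0.0304). With the mitochondrial covariate the counts were 2, 5 and 2. In the libraries of like share 3 of the 20 were called higher at day 7, and at day 14 there were 10 called higher with a median of 0.52.

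Genes of ER-associated degradation were called higher for 1 of 14 at each day, no more than the share of all genes, and 1 was called lower, at day 14. With the covariate 0, 1 and 2 were called higher. Edem1, which leads misfolded glycoproteins to degradation, changed by 0.66 (SE 0.12, adjusted p = 0.000687) at day 14. Derl3, a component of the retrotranslocation channel, fell by 1.24 (SE 0.43, adjusted p = 0.0355) from 2.49 CPM to 1.04 CPM.

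Of 15 targets of ATF4 and the integrated stress response, 5 were called higher and 2 lower at day 7, 4 higher and 2 lower at day 14, and 5 higher and 1 lower at day 21, with medians of 0.51, 0.28 and 0.19. With the covariate the day 7 counts were 3 higher and 1 lower and the median was 0.26, where the share of all genes called was also lower, and in the day 14 libraries of like share 3 were called higher and 4 lower. Gdf15, a stress-induced cytokine of the TGF-beta family, went from 1.58 CPM (SD 0.17, n = 4) at day 0 to 24.2 CPM (SD 3.22, n = 4) at day 7 and 9.55 CPM (SD 2.39, n = 3) at day 21, and its log2 changes were 3.94, 3.41 and 2.60. Slc7a11, the cystine transporter, went from 3.01 CPM to 26.5 CPM at day 14, a log2 change of 3.14 (SE 0.24, adjusted p = 9.05e-07). Atf5, a transcription factor related to ATF4, fell by 0.69 (SE 0.11, adjusted p = 0.000226) and Vldlr, a lipoprotein receptor, fell by 0.61 (SE 0.14, adjusted p = 0.00373) at day 14. Both Gdf15 and Slc7a11 are also known targets of other regulators.

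Of 18 genes of ER entry and export, 10 were called higher at day 7, 8 on day 14 and 6 on day 21, and 0 lower, with medians of 0.61, 0.58 and 0.44. At day 7 the count was 5 with the covariate, beside 4.97% of all genes, and 6 in libraries of like share, beside 7.54%. Kdelr3, which returns ER proteins from the Golgi, went from 7.56 CPM (SD 1.74, n = 4) to 31.0 CPM (SD 11.5, n = 4) at day 14, a log2 change of 2.03 (SE 0.24, adjusted p = 1.8e-05). Serpinh1 (HSP47, the collagen chaperone) changed by 1.03 (SE 0.25, adjusted p = 0.00519).

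**Figure D5:**
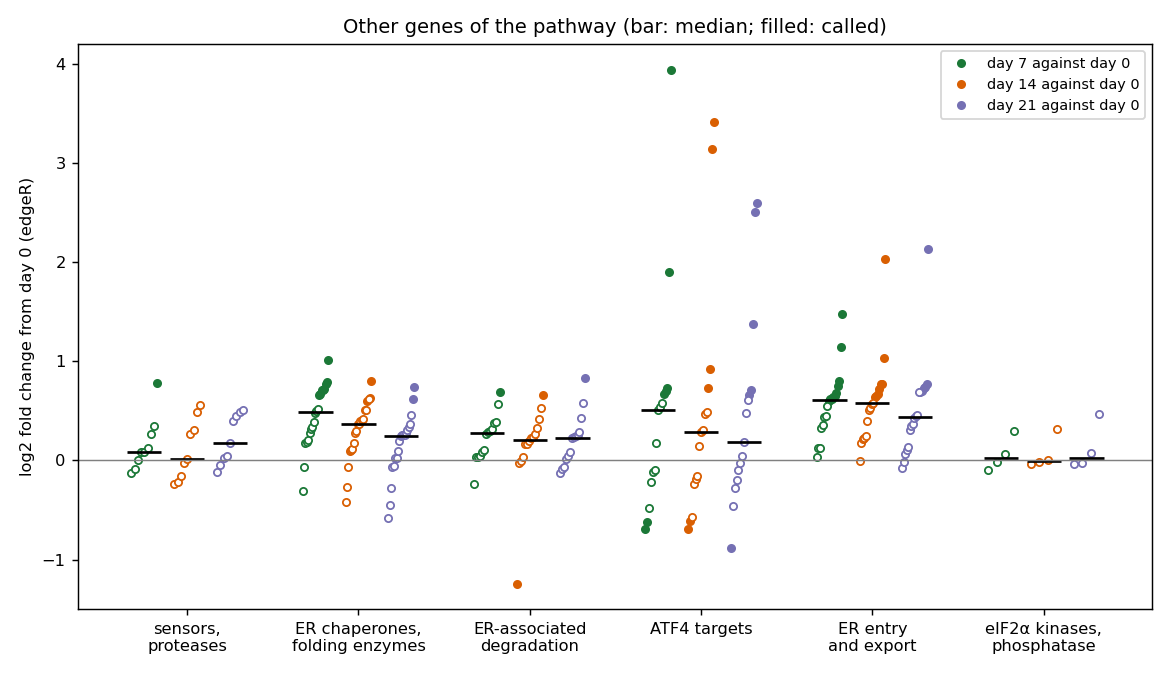
Log2 fold change from day 0 of the other genes of the pathway by list and day, with black bars at the medians and filled points for called genes. ER entry and export had the most called genes at day 7, 10 of 18, and the highest points, Gdf15 and Slc7a11, were in the ATF4 list.

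Markers of lung cell types moved over the same days, and their counts are to be read beside 8.78%, 12.0% and 12.4% of all genes called higher and 7.36%, 11.2% and 10.1% called lower. Summed levels of 5 fibroblast markers went from 1304 to 1985 CPM at day 0 to 4809 to 6056 CPM at day 7, 3579 to 13111 CPM at day 14 and 4814 to 9427 CPM at day 21, and 3 of the 5, the collagens Col1a1, Col1a2 and Col3a1, were called higher at each day. The other 2 were not called, with means of 358, 430, 305 and 412 CPM for Pdgfra and 164, 213, 123 and 180 CPM for Dcn in order of day, so the sum follows collagen levels. Of 5 macrophage markers, 2, 5 and 3 were called higher, with sums of 321 to 372 CPM at day 0 and 614 to 1426 CPM at day 14. With the covariate the macrophage counts were 1, 5 and 3, and in libraries of like share 3 and 3 at day 7 and day 14. Of 6 alveolar type 2 markers, 0, 4 and 6 were called lower, and their sum went from 27913 to 38007 CPM at day 0 to 4549 to 9854 CPM at day 21. These counts were the same with the covariate, and in libraries of like share they were 1 and 2 at day 7 and day 14. Of 3 club cell markers, 2, 3 and 2 were called lower, with sums of 27163 to 33773 CPM at day 0 and 1461 to 5627 CPM at day 21.

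Plasma cells, which secrete much protein and are rich in Xbp1, were followed by 6 markers, of which 5 were tested. Of these, 1 was called higher at each day and 1 lower at day 14 and at day 21, with sums of 276 to 377 CPM at day 0, 457 to 804 CPM at day 7 and 418 to 734 CPM at day 21. Most of the day 0 and day 7 sums was Sdc1, which epithelial cells also express, with means of 272 CPM at day 0 and 480 CPM at day 7, and it was the gene called higher at day 7 and day 14. Jchain, the joining chain of secreted antibodies, was the gene called higher at day 21, with means of 19.3 CPM at day 0 and 230.1 CPM at day 21, and Prdm1 was the gene called lower. Endothelial markers (5) were called lower for 2, 2 and 1, with sums of 2354 to 2702 CPM at day 0 and 1204 to 2214 CPM at day 14. With the covariate the endothelial counts were 0, 3 and 1, and in libraries of like share they were 0 at both day 7 and day 14. Their median log2 change in libraries of like share was -0.49 at day 7 and -0.56 at day 14, beside -0.48 and -0.54 in all libraries. Alveolar type 1 markers (4) had 1 called higher at each day and 1, 0 and 2 lower. Cardiac muscle markers varied from 11.8 to 665 CPM in sum and adipocyte markers from 0.23 to 127 CPM, and only the adipocyte marker Lep was at 0 in every library of a day, day 21. Of 4 adipocyte markers tested, 0, 4 and 3 were called lower, with a median log2 change of -5.67 at day 14, and of 4 cardiac markers tested 0, 1 and 0 were, with 4 lower at day 14 in libraries of like share. Of 7 immediate early genes, 3, 3 and 2 were called lower, with sums of 571 to 2962 CPM at day 0 and 675 to 934 CPM at day 7. At day 7 the immediate early counts were 0 lower with the mitochondrial covariate, and 2 higher and 0 lower in libraries of like share, where the median log2 change was 0.50 instead of -0.59. At day 14 the counts were 2 lower with the covariate, and 0 higher and 4 lower in libraries of like share. The day 14 median there was -1.26 instead of -0.72. The part of these cell types in the changes of the 10 genes was not tested.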

How the data were processed

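Poly(A) RNA of 15 whole mouse lungs was sequenced as 150 bp pairs. The authors aligned reads with HISAT2 2.1.0 to GRCm38 and deposited raw counts per gene from HTSeq 0.6.0, without multi-mapped reads. The annotation release and the strand setting were not given in the sources used here. Genes were named through GENCODE M21, which matched 33267 of 33340 identifiers, and the rest held 0.00889% of counts.

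Counts were tested with edgeR 4.0.16 in R 4.3.3 (filterByExpr, TMM factors, quasi-likelihood test, all 15 libraries, day as the only term). The common biological coefficient of variation was 22.8%. DESeq2 1.42.0, limma voom 3.58.1, other scalings, no filter, the compared groups alone, a replicate block, each library left out and a mitochondrial covariate were alternatives, and the fitting was tested on simulated data. The study describes the libraries of a day as biological replicates, but the labels do not tie each to 1 mouse, so p-values measure the spread between these libraries. Same-numbered libraries of different days deviated together at a median correlation of 0.0406 (-0.244 to 0.397), so the numbers were not taken as pairs.

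The 10 genes and all lists were chosen with earlier results of these data known. All 10 are named. From each list of other pathway genes the called genes with the largest changes at day 14, up to 2 in each direction, are named, and genes like a member needed a mean of 5 CPM.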

Additional observations from a re-analysis of the deposited data

Results flagged for a closer look

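In 30 groups of 4 libraries (10 genes at 3 days), 2 held a library far from the other 3, where chance gives about 5% of groups. Atf4 stood at 139 CPM in day 14 replicate 4, while the other 3 libraries of that day lay between 183 and 189 CPM. Dnajb9 stood at 85.0 CPM in day 0 replicate 2, while the other 3 day 0 libraries lay between 73.9 and 75.8 CPM.

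The change of Creld2 from day 0 differed between day 7 and day 21, by the direct comparison of both days: the log2 change of day 21 against day 7 was -0.88 (edgeR, adjusted p = 0.0257, n = 3 against 4), and all 3 day 21 libraries lay below all 4 day 7 libraries. It was -0.82 (adjusted p = 0.104) with the mitochondrial share as a covariate.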

How the results depend on the processing

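The count of called genes stayed within 1.5 times under total count scaling, RLE factors, DESeq2, limma voom, no filter, no fold threshold and the compared groups alone. With the mitochondrial covariate it was 0 at day 7 and 0 at day 21 against day 7, beside 7.27% and 5.40% of all genes called. Without 1 library it ranged from 2 to 4 at day 14 against day 0 and from 0 to 2 at day 21 against day 7. With the replicate block the counts were 4, 3 and 2 at day 7, day 14 and day 21, without Hspa5 at day 14 (adjusted p = 0.0551) and Sdf2l1 at day 21 (adjusted p = 0.0830), and the latter was also lost in the compared groups alone (adjusted p = 0.110). Shares of all genes called are not given here for the replicate block or the fits without 1 library, so those counts have no background beside them. The cause of these differences was not tested.

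Signs turned only in changes that were not called. Atf4 at day 7 was 0.0132 with limma voom, 0.14 with the covariate and 0.19 in libraries under 2.5%, and in libraries over 3.5% the day 14 changes were -0.0479 for Atf4, 0.17 for Ddit3 and -0.30 for Atf3. Without 1 library, day 7 changes ranged from -0.22 to 0.0214 for Ddit3, -0.12 to 0.0806 for Atf4 and -0.10 to 0.52 for Atf3. Day 14 changes ranged from -0.22 to 0.0154 for Ddit3, -0.0131 to 0.60 for Atf3 and -0.0410 to 0.26 for Creld2, and the day 21 change of Atf3 from -0.34 to 0.46. Of 490 alternative values of 30 single-gene changes, 438 kept direction and call, 28 lost the call, 3 gained it and 21 turned sign. That tally leaves out the setting with no fold threshold, which keeps each value and additionally called Xbp1 at day 7 (adjusted p = 0.0239). Trib3, with 53 to 166 counts a library, has the least depth.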
